A study of Mus musculus with 18 samples.

Results

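Day 1 after surgery, expanded mouse back skin was compared with control skin by single-cell RNA sequencing, across every cell class that could be recognised. The comparison took in all mRNA libraries labelled day 1, which are 2 of expanded skin and 2 of control skin, and they held 22249 of the 45488 cells kept over the 10 mRNA libraries of the series. All mice had the same operation: an incision near the tail and a tunnel under the skin towards the neck. In the expanded arm (EXP) a hydrogel that acts as an expander was placed through the tunnel and held by stitches, and in the control arm (CTRL) no expander was placed, so both arms carry a surgical wound. Live cells of the whole skin were sorted, and in each sequencing round the CTRL mice were pooled in one tube and the EXP mice in another before droplet capture. Strain, sex and age are not given in the sources used here.

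The first round of day 1 is a pool whose mice cannot be separated, and the second round carries hashtags for 3 mice per arm. Each arm therefore had 2 libraries, and p-values over them measure the spread between pools. The arm and its tube and capture reaction cannot be told apart within a round. Markers of the expected tissue were present: 20 classes were recognised among keratinocytes, fibroblasts, vessels, nerve, pigment cells and leukocytes. They are written "-like" because the names rest on marker genes. Another 4057 day 1 cells (18.2%) lay in clusters left unnamed and called by their number.

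Skin answers stretch from the outside and the inside. Keratinocytes of the basal layer divide and push differentiating suprabasal cells outwards, and injured or stressed epidermis switches on the keratins Krt6a, Krt6b, Krt16 and Krt17. Dermal fibroblasts lay down collagen and matricellular proteins such as tenascin C. Endothelial cells display selectins and other adhesion proteins that let leukocytes leave the blood, and neutrophils and monocytes are the first leukocytes to enter damaged tissue.

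The mice of the second round were told apart by DNA hashtags, 15-base barcodes on antibodies that were counted beside the mRNA. They are shown because every statement on single mice depends on them, and the capitals mark the whole barcode.
CTRL mouse 1: GAGTCTGCCAGTATC
CTRL mouse 2: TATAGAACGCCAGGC
CTRL mouse 3: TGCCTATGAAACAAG
EXP mouse 1: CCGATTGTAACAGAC
EXP mouse 2: GCTTACCGAATTAAC
EXP mouse 3: CTGCAAATATAACGG
Any 2 of these barcodes differ at 9 or more positions.

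The 4 libraries held between 45091403 and 75470722 unique molecular identifiers (UMIs, each standing for 1 captured RNA molecule). Kept cells numbered 5687 and 7956 in CTRL and 2911 and 5695 in EXP, in rounds 1 and 2. The median UMI count per cell was 11440 and 12760 in round 1 and 6322 and 7400 in round 2. Whole libraries therefore differed more in depth by round than by arm. Within every class tested for genes, the EXP median lay above the CTRL median of the same round. In basal keratinocyte-like cells the medians were 10532 and 8251 in CTRL and 17282 and 12537 in EXP, so there the arms differed more than the rounds. No more than 23 cell barcodes were shared between any 2 libraries.

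The cell make-up of the skin differed between the arms on day 1. Keratinocytes of the basal layer made up a larger share of the cells in EXP, fibroblasts a smaller share, and neutrophils were several times as frequent. Of these 3, the basal share passed the test, and the other two passed when the sequencing round was fitted as a block. Basal keratinocyte-like cells, the dividing layer of the epidermis, were 1.35% and 1.65% of cells in CTRL and 7.15% and 6.25% in EXP. This was a rise of 2.16 ± 0.55 (SE) on the log2 scale, with an adjusted p of 0.047 in edgeR's quasi-likelihood test over 28 cell groups. Both EXP libraries lay above both CTRL libraries. Of the 28 groups tested, 2 passed (7.14%), the other being cluster 19, and 11 passed (39.3%) when the sequencing round was fitted as a block. Without CTRL round 1, CTRL round 2, EXP round 1 or EXP round 2 in turn, 0, 0, 4 and 1 groups passed. Over the single mice of round 2, told apart by hashtags with HTODemux, the basal shares of the arms overlapped: they were 2.75%, 2.72% and 4.41% of assigned cells in CTRL and 7.82%, 22.7% and 1.97% in EXP (exact permutation p 0.4). A share is relative: fewer cells of a type, or easier release of another type from the tissue, cannot be told apart.

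The class with markers of both basal and hair follicle keratinocytes was 3.62% and 3.51% of cells in CTRL and 14.5% and 15% in EXP. Its log2 difference was 2.05 ± 0.68, with an edgeR adjusted p of 0.0777 and of 0.00306 with the round as a block. Fibroblast-like cells, the builders of the dermis, were 48.8% and 32.5% in CTRL against 15.5% and 7.08% in EXP. The arms did not overlap, and the log2 difference of -1.85 ± 0.54 had an edgeR adjusted p of 0.0513, or 0.000129 with the block. Suprabasal keratinocyte-like cells were 1.07% and 1.51% in CTRL and 1.17% and 2.39% in EXP, which overlapped.

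Neutrophil-like cells, the phagocytes that arrive first, were 0.123% and 0.365% of cells in CTRL and 0.653% and 3.69% in EXP. Their log2 difference was 3.14 ± 0.89 with an edgeR adjusted p of 0.0513, and of 0.000553 with the block. T cell-like cells were 1.44% and 2.58% in CTRL and 3.50% and 9.01% in EXP, with an edgeR adjusted p of 0.183, or 0.0371 with the block. Macrophage or monocyte-like cells did not pass either way: they were 11.3% and 7.45% in CTRL and 4.74% and 7.38% in EXP. Immune cells together were 23.6% and 25.3% of CTRL and 20.6% and 34.7% of EXP cells. Skeletal muscle-like cells, which lie below the dermis, numbered 2 and 40 in CTRL and 0 in both EXP libraries, which allows shares of up to 0.103% and 0.0527% (3 counts of each library).

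**Figure D1:**
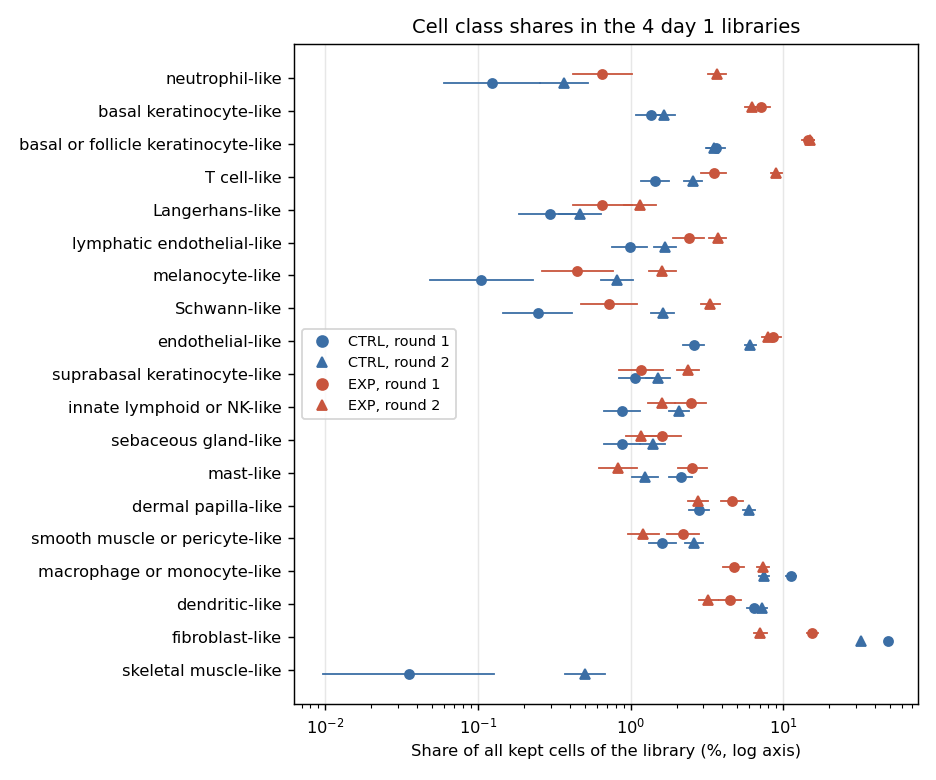
Share of each named cell class (percent of all kept cells of a library, log axis) in the 4 day 1 libraries, with 95% Wilson binomial intervals that cover counting error only. Circles are round 1 and triangles round 2; the basal keratinocyte-like shares of EXP (7.15% and 6.25%) lie above those of CTRL (1.35% and 1.65%), and skeletal muscle-like cells, at 0 in EXP, have no EXP point.

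Clusters 8 and 19 carried fibroblast markers but were left unnamed. Cluster 19, led by Tnc, Cxcl5, Il19, Il11 and Mmp3, held 14 CTRL and 359 EXP cells. Its leading genes are ones that changed in fibroblast-like cells, so its size is given as a description only. Cluster 8, led by Lrrc15 and Cilp, held 6.98% and 6.55% of CTRL and 3.57% and 0.983% of EXP cells, with an edgeR adjusted p of 0.183, or 0.0149 with the block. Cluster 34, led by the mitosis genes Hmmr, Ube2c and Birc5, held 28 and 20 cells in CTRL and 4 and 1 in EXP.

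Among the hashed mice of round 2, the leukocytes of EXP came mostly from 1 animal. HTODemux assigned 6022 of 13651 cells (44.1%) to a mouse. The hashtags marked leukocytes far better than other cells: 3965 of 3984 immune cells (99.5%) and 2057 of 9667 other cells (21.3%) were assigned. EXP mouse 3 gave 1699 of the assigned EXP immune cells (86.8%), against 142 and 117 from EXP mice 1 and 2. CTRL mice 1 to 3 gave 762, 1102 and 143. That mouse's hashtag also had the largest total, 1276451 counts, against 111130 and 148671 for the other EXP hashtags, and its part in the immune results was not tested.

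Within each mouse's own immune cells, which avoids the uneven marking, neutrophil-like cells were 1.18%, 1.82% and 0% in the CTRL mice and 1.41%, 8.55% and 11.3% in the EXP mice. The arms overlapped (exact permutation test, two-sided, p = 0.2 with 3 mice per arm). T cell-like cells were 6.96%, 11.0% and 21% of immune cells in CTRL and 16.9%, 53.0% and 25.1% in EXP, again with overlap (exact p = 0.2). Innate lymphoid or NK-like cells lay lower in all EXP mice, at 4.22%, 3.42% and 4.65% against 4.86%, 10.4% and 9.79%. Its exact p of 0.1 is the smallest that 3 mice against 3 can give, and the value adjusted over the immune groups was 0.333. Round 1, whose mice cannot be separated, lay the other way: the class was 3.73% of immune cells in CTRL and 12.0% in EXP. Over the libraries of both rounds, with immune cells as the denominator, its edgeR adjusted p was 0.767. Of the 204 assigned EXP neutrophil-like cells, 192 (94.1%) came from EXP mouse 3, as did 395 of 420 macrophage or monocyte-like cells (94.0%) and 427 of 513 T cell-like cells (83.2%).

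**Figure D2:**
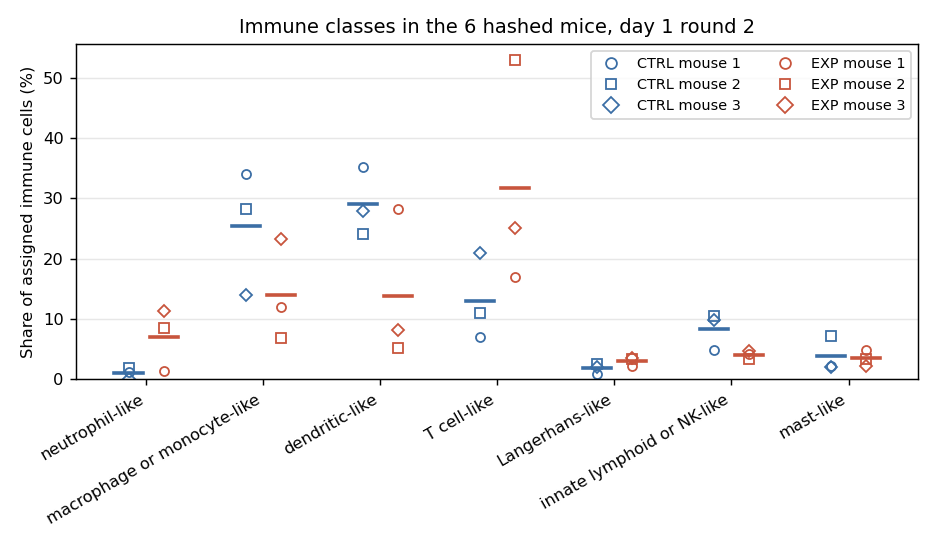
Share of each immune class among the assigned immune cells of each of the 6 hashed mice (percent, linear axis from 0); symbols are mice and bars are the arm means. T cell-like shares run from 6.96% to 21% in CTRL and from 16.9% to 53.0% in EXP, and neutrophil-like shares of the arms overlap at EXP mouse 1.

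In fibroblast-like cells of EXP skin, the acute phase genes Saa1 and Saa2, the neutrophil-attracting chemokine gene Cxcl5 and the tenascin C gene Tnc rose. Gpx3, Lpl and Fgl2 fell. In edgeR's quasi-likelihood test on UMIs summed per library, 186 genes were higher and 255 lower of 13895 tested (1.34% and 1.84%) at an adjusted p under 0.05. With the round as a block the counts were 424 and 650 (3.05% and 4.68%). Both EXP libraries lay above both CTRL libraries in 47.4% of these genes and below in 12.8%. All levels below are counts per 1000000 UMIs of the class in a library (CPM), listed as CTRL rounds 1 and 2 and then EXP rounds 1 and 2. All differences are log2 of EXP over CTRL with the standard error. They come from the edgeR fit, which rescales libraries by TMM (trimmed mean of M values). The CPM levels and the overlaps of the arms use plain totals, so a difference can depart from the ratio of the printed levels.

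Tnc encodes tenascin C, a matrix protein of wounds and strained tissue. It was at 6.41 and 12.8 CPM in CTRL and at 390 and 854 in EXP, a difference of 5.72 ± 0.68 (edgeR adjusted p 0.0144). Both EXP libraries were more than an order of magnitude above both CTRL libraries. Cxcl5, a chemokine for neutrophils, was at 0.336 and 0.805 in CTRL and at 9.78 and 362 in EXP, so that round 2 lay far above round 1 (8.11 ± 1.76, edgeR adjusted p 0.0416). Il33, an alarm cytokine kept in the nucleus, was at 1.29 and 3.22 against 19.6 and 230 (5.51 ± 0.99, edgeR adjusted p 0.0262). Npy, a neuropeptide, was at 0.168 and 0.142 against 3.54 and 39.6, and Ereg, a ligand of the EGF receptor, was at 1.32 and 6.59 against 50.5 and 172. Npy and Ereg rose by 6.61 ± 1.16 and 4.57 ± 0.74 (edgeR adjusted p 0.0254 and 0.0239).

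The acute phase genes Saa1 and Saa2 encode serum amyloid A, secreted lipid-binding proteins of inflammation. Saa1 was at 1.77 and 4.45 CPM in CTRL and 108 and 515 in EXP, and Saa2 was at 0.672 and 0.426 against 20.6 and 131. They rose by 6.37 ± 0.97 and 6.65 ± 1.00 (edgeR adjusted p 0.0239 for both). The genes are near-identical neighbours, so how the counting split reads between them is uncertain. Their promoters are printed because they moved together; capitals mark the C/EBP motif TTNNGNAA on either strand, C/EBP being transcription factors of the acute phase. The sequences are RefSeq's for GRCm38.p6, from 250 bases before the start to 50 after, 5′ to 3′ on the gene's strand.
Saa1, chr7:46742931-46743230, minus strand: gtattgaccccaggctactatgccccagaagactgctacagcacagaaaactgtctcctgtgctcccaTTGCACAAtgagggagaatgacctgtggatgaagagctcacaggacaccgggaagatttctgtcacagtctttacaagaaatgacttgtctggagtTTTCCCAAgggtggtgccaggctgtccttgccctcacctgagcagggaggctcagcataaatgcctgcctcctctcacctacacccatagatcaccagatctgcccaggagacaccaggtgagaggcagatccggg
Saa2, chr7:46751583-46751882, plus strand: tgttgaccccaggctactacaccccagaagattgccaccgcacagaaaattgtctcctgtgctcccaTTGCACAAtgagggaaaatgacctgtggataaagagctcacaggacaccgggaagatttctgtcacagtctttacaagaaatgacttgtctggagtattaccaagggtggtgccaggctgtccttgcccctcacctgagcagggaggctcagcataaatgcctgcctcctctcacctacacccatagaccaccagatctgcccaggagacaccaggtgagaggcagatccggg
The motif stood at bases 69 to 76 and 165 to 172 of the Saa1 window and at bases 68 to 75 of the Saa2 window. It is common: 40.7% of 32851 promoter windows of 300 bases hold it, as do 5 of the 8 named fibroblast genes with a window. A match is a description of letters and not a bound site.

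Other acute phase genes moved less clearly. Of 16 tested genes of the acute phase and alarm list, 4 rose (Saa1, Saa2, Lcn2 and Stfa3) and none fell, with a median difference of 1.71 against 0.00525 over all genes tested. Lcn2, which binds bacterial siderophores, was at 0.384 and 1.09 CPM against 6.45 and 27.9, under 1% of its level in the class where it was highest (0.697%). At the 5% mitochondrial limit Lcn2 and Stfa3 lost their calls (edgeR adjusted p 0.0527 and 0.0541), while their differences changed little (4.25 and 2.40). Stfa3 is also a leading gene of a basal keratinocyte cluster at finer resolution, and basal keratinocyte-like cells were more frequent in EXP. The part of these cells was not tested. Saa3 was at 6.96 and 107 in CTRL and 117 and 887 in EXP, with an edgeR adjusted p of 0.264, or 0.0475 with the block.

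Several genes fell in fibroblast-like cells. Gpx3, a secreted glutathione peroxidase, was at 123 and 190 CPM in CTRL and 15.8 and 6.11 in EXP (-4.07 ± 0.43, edgeR adjusted p 0.0144). Lpl, the lipoprotein lipase, was at 312.1 and 202 against 47.0 and 54.8 (-2.68 ± 0.30, edgeR adjusted p 0.0144). Fgl2, a fibrinogen-like secreted protein, was at 2407 and 1974 against 654 and 552 (-2.19 ± 0.35, edgeR adjusted p 0.0239). The arms did not overlap for any of these 3. Mirg, a long non-coding RNA of the imprinted Dlk1-Dio3 region, was at 184 and 190 against 28.8 and 35.5. The neuropeptide galanin (Gal) was at 31.9 and 15.9 against 4.62 and 3.42, and Il31ra, a cytokine receptor subunit, at 22.4 and 22.8 against 6.23 and 1.47. These 3 fell by 2.87, 2.87 and 2.71 on the log2 scale.

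**Figure D3:**
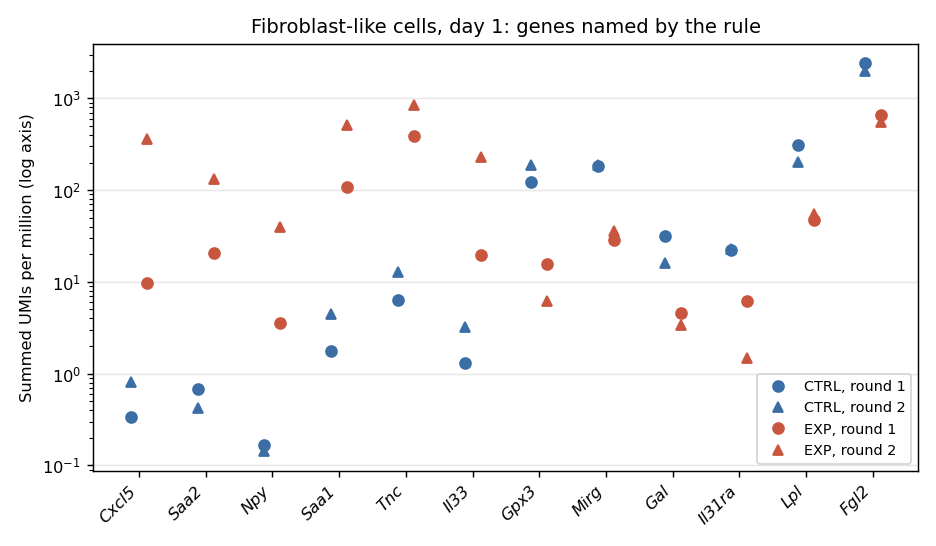
Levels of the 12 genes named by the rule in fibroblast-like cells (CPM, log axis), 1 point per library. The EXP points of Tnc (390 and 854) lie above the CTRL points (6.41 and 12.8), and those of Gpx3 (15.8 and 6.11) lie below (123 and 190).

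Matrix and growth factor genes did not move as one. Of 14 dermal collagens tested, 2 fell and none rose: Col5a2, at 1469 and 1237 CPM against 947 and 672, and Col15a1, at 328 and 332 against 197 and 161. The chief collagen Col1a1 was at 66150 and 40720 against 31200 and 16470, with a difference of -1.50 ± 0.50 (edgeR adjusted p 0.121, or 0.0043 with the block). Postn, encoding periostin of the matrix, fell by 1.55 ± 0.33 from 124 and 142 to 34.5 and 80.9 (edgeR adjusted p 0.0397). Has1, a hyaluronan synthase, was at 859 and 770 against 454 and 433 (edgeR adjusted p 0.0702). Fst, the activin antagonist follistatin, rose by 2.21 ± 0.44 from 84.6 and 152 to 346 and 1011, while Tgfb2, a TGF-beta ligand, fell by 1.80 ± 0.31 from 169 and 164 to 74.3 and 44.5. Their edgeR adjusted p was 0.0327 and 0.0246.

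Of 14 tested genes of cholesterol synthesis, 2 rose in fibroblast-like cells, Sqle and Msmo1. In 13 of them both EXP libraries lay above both CTRL libraries, as in 47.4% of all genes tested in this class. Sqle, the squalene epoxidase, was at 4.51 and 5.92 CPM against 14.5 and 31.1. Of 13 tested targets of YAP and TAZ, co-activators that answer to tension, none passed. The YAP target Ccn2 was at 15.4 and 57.1 in CTRL and 167 and 176 in EXP (1.96 ± 0.80, edgeR adjusted p 0.189, or 0.0446 with the block). It was the 1 gene of that list that passed with the block.

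The fibroblast-like class was made of different clusters in the 2 arms. Cluster 0, led by Mirg and collagen genes, held 3115 of the CTRL cells (58.1%) and 240 of the EXP cells (28.1%). Cluster 2, led by Igfbp2 and Mme, held 1135 (21.2%) and 366 (42.8%), and cluster 29, led by genes including Saa1 and Il33, held 122 (2.28%) and 197 (23%). Within cluster 2, Tnc was at 17.6 and 32.9 CPM in CTRL and 772 and 1410 in EXP, and within cluster 0 at 2.39 and 4.59 against 37.5 and 18. Within cluster 29, Saa1 was at 3.63 and 32.6 against 1040 and 2160. Il33 within cluster 29 was at 76.3 and 171 against 132 and 960, so the arms overlapped. Mirg within cluster 0 was at 208 and 228 against 42.7 and 89.8. Gpx3 was highest in clusters 21 and 33, at 1620 and 2470 CPM in the CTRL libraries of cluster 21, and these clusters held 319 and 206 cells in CTRL and 11 and 1 in EXP. Within cluster 0 it was at 9.38 and 18.8 against 9.03 and 3.99. Lpl within cluster 0 was at 252 and 128 against 77.2 and 69.8. These values are descriptions, since the clusters were drawn from the same genes.

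The fibroblast count leaned on single libraries, as did most single calls. Of 159 calls of the genes examined over all classes, 23 stood in each of the 4 fits that left out 1 day 1 library, and among 25 in fibroblast-like cells these were Gpx3 and Lpl. Tnc lost its call only without CTRL round 1 (edgeR adjusted p 0.096). Without CTRL round 1, CTRL round 2, EXP round 1 or EXP round 2 in turn, the edgeR test called 8, 48, 527 and 30 genes. With clusters 8 and 19 joined to the class it called 757, and DESeq2 called 794.

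In basal keratinocyte-like cells of EXP skin, 4 mitosis genes, the protease Klk7 and the serpin Serpinb2 fell, and the stefin-family gene Cstdc5 and 2 mevalonate enzymes rose. Of 10217 genes tested, edgeR called 116 higher and 272 lower (1.14% and 2.66%), and 402 and 668 with the round as a block (3.93% and 6.54%). With cells thinned to 2000 UMIs it called 122 genes, against 388 without thinning. The arms did not overlap in 34.8% of genes with EXP above and 22.1% with EXP below. Of the 388 calls, 97 were of genes whose level in this class was under 10% of that in another class, and 95 of those were lower in EXP. The summed level of 10 fibroblast markers in these cells was 3988 and 1609 CPM in CTRL and 189 and 125 in EXP, with fibroblasts also more frequent in CTRL. The part of this in the collagen calls (10 of 13 tested dermal collagens lower) was not tested.

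Cstdc5, of the stefin family of cysteine protease inhibitors, was at 8.98 and 22.8 CPM in CTRL and 561 and 874 in EXP (5.36 ± 0.82, edgeR adjusted p 0.00514). Krtdap, a gene of differentiating keratinocytes, was at 69.9 and 37.1 against 571 and 510 (3.25 ± 0.68, edgeR adjusted p 0.0232). Its level here was 13.2% of that in the class where it was highest, and the part of transcripts from other classes was not tested. Fdps and Idi1, enzymes of the mevalonate route to cholesterol, were at 40.9 and 38.8 against 105 and 235, and at 25.9 and 26.1 against 72.8 and 133. They rose by 2.00 ± 0.36 and 1.89 ± 0.34 (edgeR adjusted p 0.0116 and 0.0127), and they were the 2 of 14 cholesterol genes that passed. Rbp2, which carries retinol inside cells, rose by 2.60 from 6.99 and 7.59 to 35.7 and 59.2. The mitochondrial peroxidase gene Prdx3 rose by 2.36 and the leukotriene B4 receptor gene Ltb4r2 by 2.31. For each of these 7 genes both EXP libraries lay above both CTRL libraries.

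Of 18 tested genes of S phase and mitosis, 4 fell in this class on day 1 (Ube2c, Mki67, Birc5 and Ccnb1) and none rose. Mki67, the Ki-67 proliferation marker, was at 103 and 121 CPM in CTRL and 39.5 and 34.7 in EXP (-1.70 ± 0.24, edgeR adjusted p 0.00351). Ube2c, which loads ubiquitin for the anaphase-promoting complex, was at 48.9 and 72.5 against 10.0 and 8.69 (-2.80 ± 0.39, edgeR adjusted p 0.00326). Hmmr, a spindle protein, was at 35.9 and 47.2 against 7.94 and 5.98 (-2.68 ± 0.34, edgeR adjusted p 0.00174). At the 5% mitochondrial limit Mki67 and Hmmr kept their calls, while Ube2c was at -1.78 (edgeR adjusted p 0.0546), Ccnb1 at -0.90 and Birc5 at -0.18. At finer resolution a cluster led by Akr1c18, Anln and Ccnb1 made up 7.79% and 9.16% of the class in CTRL and 2.40% and 0.562% in EXP.

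Among the other genes that fell, Klk7, a protease that loosens the outer epidermis, was at 67.9 and 125 CPM against 9.34 and 15.2 (-3.06 ± 0.32, edgeR adjusted p 0.000844). Klk7 was at 12.9% of its level in the class where it was highest, and the part of transcripts from other classes was not tested. Serpinb2, an inhibitor of plasminogen activators, was at 460 and 1246 against 59.5 and 180 (-2.92 ± 0.56, edgeR adjusted p 0.0145). Fosl1, an AP-1 subunit of migrating keratinocytes, was at 201 and 231 against 46.5 and 84.9 (-1.81 ± 0.38, edgeR adjusted p 0.0238), the only 1 of 20 immediate early genes that passed, while 8 fell with the block. Ndufa4l2 fell by 2.67 from 76.8 and 232 to 13.8 and 37.8. Cilp, a cartilage matrix gene, had 44 UMIs in CTRL and 3 in EXP, a ratio of 63.4 with a counting interval of 20.3 to 319. Its CTRL signal came from round 1 (42.9 CPM against 0.843 in round 2), and it is a matrix gene that leads the fibroblast-marked cluster 8.

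The hashed mice of round 2 gave the same comparison with 3 animals per arm, although only 102 CTRL and 153 EXP basal keratinocyte-like cells could be assigned. Cstdc5 was at 25.7, 14.9 and 45.6 CPM in CTRL mice 1 to 3 and at 1193, 1101 and 1171 in EXP mice 1 to 3 (5.21 ± 0.27, edgeR adjusted p 1.288e-06). Fdps was at 38.6, 32.2 and 45.6 against 261, 262 and 254, and Idi1 at 28.9, 27.2 and 21 against 194, 132 and 138. The 3 EXP mice lay close together and above the 3 CTRL mice in each of these genes. Klk7 was at 109, 94.0 and 186 in CTRL and 37.3, 1.76 and 2.57 in EXP (-3.59 ± 0.65, edgeR adjusted p 0.00358). Fosl1 was at 363, 134 and 301 against 46.2, 65.2 and 66.7 (-2.31 ± 0.33, edgeR adjusted p 0.00111).

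Mitosis genes were less even over mice. Mki67 was at 183, 190 and 17.5 CPM in CTRL and 37.3, 54.6 and 7.70 in EXP, so that the arms overlapped at CTRL mouse 3, although the edgeR adjusted p was 0.0307. Ube2c showed the same order, at 80.3, 141 and 14 against 19.4, 20.2 and 2.57. Over all genes, 528 were higher and 761 lower of 5821 tested (9.07% and 13.1%) in these mice. The mice are those of the round 2 libraries and so are no independent repeat of them.

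**Figure D4:**
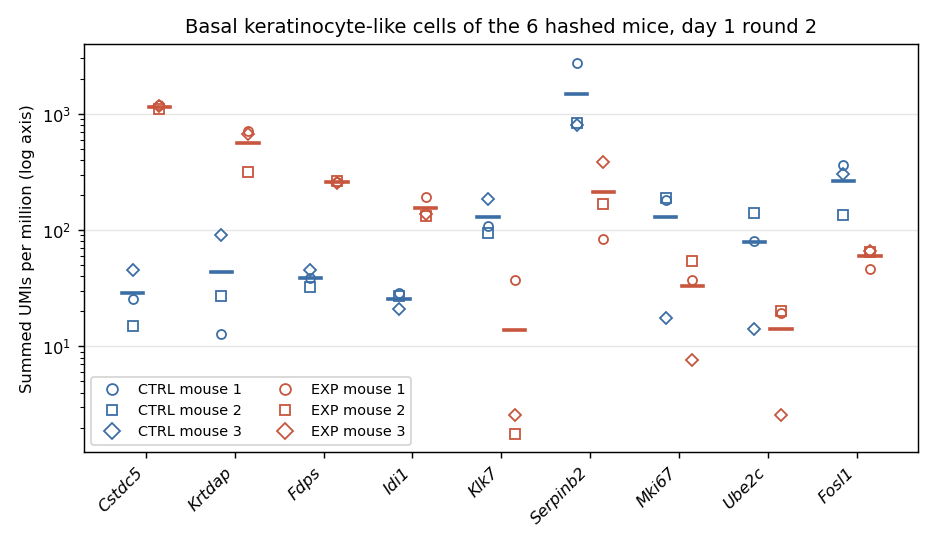
Levels of 9 genes in basal keratinocyte-like cells of the 6 hashed mice of round 2 (CPM, log axis); points are mice and bars are arm means. The EXP mice lie at 1101 to 1193 for Cstdc5 and the CTRL mice at 14.9 to 45.6, while Mki67 overlaps between the arms at CTRL mouse 3 (17.5).

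Without CTRL round 1, CTRL round 2, EXP round 1 or EXP round 2, the edgeR test in basal keratinocyte-like cells called 91, 59, 197 and 190 genes, against 388 with all libraries. The calls of Klk7, Ube2c, Hmmr and Mki67 stood in all 4 fits, and Cstdc5 lost its call without CTRL round 1 (edgeR adjusted p 0.0582). DESeq2 called 193.

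Suprabasal keratinocyte-like cells, the differentiating layers above the basal one, had higher levels of the wound keratins Krt6b, Krt16 and Krt6a in EXP. Of 8938 genes tested, edgeR called 118 higher and 297 lower (1.32% and 3.32%), or 219 and 472 with the round as a block (2.45% and 5.28%). With cells thinned to 2000 UMIs it called 80 genes, against 415 without thinning. In 35.7% of genes EXP lay above without overlap and in 16.2% below. Krt6b, which builds stress filaments with Krt16, was at 2.11 and 0 CPM in CTRL, from 2 UMIs in all, and at 714 and 420 in EXP. Its ratio was 527 with a counting interval of 146 to 4360 (edgeR adjusted p 5.625e-07). Krt16 was at 152 and 204 against 1310 and 2144 (3.09 ± 0.33, edgeR adjusted p 9.048e-05), and Krt6a at 374 and 196 against 2265 and 1661 (2.57 ± 0.33, edgeR adjusted p 0.000698). These 3 of the 15 tested genes of the wound keratin and cornified envelope list rose. Sprr1a, a precursor of the cornified envelope, fell by 1.59 ± 0.36 from 1548 and 2096 to 420 and 938 (edgeR adjusted p 0.0238).

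Among the genes with the largest rises, Cstdc5 was at 6.33 and 15.7 CPM in CTRL and 550 and 1077 in EXP (5.96 ± 0.46, edgeR adjusted p 5.237e-06). Wfdc12, of the whey acidic protein family of protease inhibitors, had no UMI in CTRL and was at 72.1 and 16.2 in EXP, at least 19.6-fold higher. Sprr2a3, a small proline-rich envelope protein, had 2 UMIs in CTRL and was at 84.4 and 139 in EXP, a ratio of 143 with a counting interval of 39.4 to 1190. Gsdmc, a gasdermin that can form membrane pores, rose by 4.90 ± 0.47 from 3.16 and 0.784 to 59.8 and 69.3. Chil1, a chitinase-like protein, rose by 4.51 ± 0.67 from 4.22 and 4.70 to 36.9 and 179. Every EXP library lay above every CTRL library in these 5 genes. Of 11 acute phase and alarm genes tested, 5 rose (Lcn2, S100a9, S100a8, Stfa3 and Serpina3n). At the 5% mitochondrial limit S100a8 and Serpina3n lost their calls (edgeR adjusted p 0.0651 and 0.0756), while Lcn2 and S100a9 kept theirs. S100a8 and S100a9 are also leading genes of the neutrophil cluster, and neutrophil-like cells were more frequent in EXP. The part of neutrophil transcripts was not tested. S100a9, a subunit of calprotectin, was at 10.6 and 2.35 against 33.4 and 66.5, and Lcn2 at 0 and 0.784 against 118 and 124, 4.91% of its level in the class where it was highest.

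Of 20 tested immediate early genes, transcription factors made within minutes of a stimulus, 7 fell in suprabasal keratinocyte-like cells and none rose. They were Nr4a1, Nr4a2, Nr4a3, Egr3, Myc, Maff and Fosl1, and the list's median was -0.68 against -0.01 over all genes. Nr4a1 was at 408 and 281 CPM against 176 and 110, and Myc at 224 and 150 against 84.4 and 85.9. Mt4, the metallothionein of stratified epithelium and one of the markers used to name this class, was at 462 and 423 CPM against 28.1 and 63.8 (-3.31 ± 0.32, edgeR adjusted p 4.266e-05). Igfbp3, a binding protein for insulin-like growth factors, was at 142 and 224 against 26.4 and 27.3 (-2.95 ± 0.29, edgeR adjusted p 4.266e-05). Baiap2l1, an actin-organising protein, fell by 2.88 ± 0.46 from 98.1 and 307.2 to 17.6 and 38.4. Skint9, of a family read by epidermal T cells, fell by 2.76 from 21.1 and 27.4 to 10.6 and 1.98, and Ly6m by 3.85 from 27.4 and 15.7 to 7.04 and 0. Igfbp2 had 89 UMIs in CTRL, nearly all in round 2 (69.0 CPM against 1.05), and 1 in EXP.

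Fdps, Idi1 and Lss, 3 of 14 cholesterol synthesis genes, rose by 1.11, 1.24 and 1.75. Fdps was at 126 and 152 CPM against 273 and 404. Ptges, the prostaglandin E synthase, was at 51.7 and 44.7 against 164 and 176, and the prostaglandin receptor gene Ptger4 at 52.7 and 70.5 against 15.8 and 24.6. They rose by 1.63 ± 0.24 and fell by 1.68 ± 0.31 (edgeR adjusted p 0.00154 and 0.00778). Tslp, Il1rn, Il1r2 and Il33 were the 4 of 8 tested cytokine genes that fell.

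In suprabasal keratinocyte-like cells too, matrix genes were called lower (7 of 10 dermal collagens). The summed fibroblast markers there were at 3035 and 2588 CPM in CTRL and 155 and 154 in EXP. The summed dendritic markers were at 254 and 24.3 in CTRL and 15.8 and 16.2 in EXP, beside a fall of 4 of 5 MHC class II genes, and their part was not tested. Leaving out 1 library gave 380, 328, 202 and 218 calls in the order used above, against 415 with all. Without EXP round 1 or EXP round 2 the number of calls was lower by more than 1.5 times, and DESeq2 called 67. Of 27 calls of the genes examined in this class, 15 stood in all 4 fits, among them Krt6b, Krt6a, Krt16, Cstdc5, Mt4 and Igfbp3.

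The class with markers of both basal and follicle keratinocytes had few calls. Of 11120 genes, edgeR called 10 higher and 9 lower (0.0899% and 0.0809%), against 488 and 741 with the round as a block (4.39% and 6.66%). Without overlap, EXP lay above in 34.2% and below in 21.2% of genes. Krt24, a keratin, leads the cluster of this class beside Lhx2, Krt15 and Col17a1 and was a marker used to name the class. It was at 59.5 and 106 CPM in CTRL and 634 and 736 in EXP (2.98 ± 0.28, edgeR adjusted p 0.0146). Krt17, the follicle and wound keratin and also such a marker, was at 5424 and 5960 against 2399 and 2883 (-1.18 ± 0.17, edgeR adjusted p 0.048). Neither gene overlapped between the arms.

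Other genes called in this class had varied roles. Slco2a1, which takes up prostaglandins, was at 36.5 and 23 CPM against 144 and 142, and Abcc3, an export pump, at 4.84 and 2.40 against 23.4 and 24.8. They rose by 2.18 ± 0.29 and 2.64 ± 0.31. Ackr4, a scavenger receptor for chemokines, rose by 1.82 ± 0.22 from 20.7 and 26.8 to 91.7 and 84.7, and Chchd10, a mitochondrial protein, by 2.11 ± 0.18. Among genes that fell, the transcription cofactor Lbh was at 52.0 and 101 against 14 and 15.9, the actin bundler Fscn1 at 129 and 148 against 42.1 and 53.4, and the tight junction claudin Cldn1 at 222 and 246 against 84.4 and 106. Their edgeR adjusted p values were 0.0322, 0.0322 and 0.048. Of 5 EGF receptor ligands tested, none passed, all 5 lay lower in both EXP libraries, and 4 fell with the block. The 4 leave-one-out fits called 5, 2, 1 and 82 genes, in the order CTRL round 1, CTRL round 2, EXP round 1 and EXP round 2, and DESeq2 called 133. At the 5% mitochondrial limit 1 of the 12 examined calls of this class stood, while the differences changed little (Krt24 at 2.84, edgeR adjusted p 0.0666). The call of Krt24 stood in all 4 leave-one-out fits, and Krt17 reached an edgeR adjusted p of 0.28 without CTRL round 2.

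In endothelial-like cells, the lining of blood vessels, Vcam1, Selp, Ackr1, Fabp4 and Fabp5 fell and Lcn2 rose. Of 11199 genes tested, edgeR called 14 higher and 79 lower (0.125% and 0.705%), or 81 and 317 with the round as a block (0.723% and 2.83%). The arms did not overlap in 37.4% of genes with EXP above and 15.7% with EXP below. Vcam1, the adhesion protein for monocytes and lymphocytes, was at 59.6 and 51.2 CPM in CTRL and 0.780 and 2.08 in EXP (-5.23 ± 0.65, edgeR adjusted p 0.00548). Selp, encoding P-selectin, which catches rolling leukocytes, was at 842 and 1069 against 192 and 160 (-2.60 ± 0.39, edgeR adjusted p 0.0153). Ackr1, the chemokine carrier of venules, was at 294 and 390 against 94.0 and 69.5 (-2.23 ± 0.26, edgeR adjusted p 0.00442). All EXP values of these genes lay below all CTRL values. They and Cytl1 were the 4 of 16 tested adhesion and vascular genes that fell. Sele, encoding E-selectin, was at 261 and 583 against 76.5 and 88.2, with an edgeR adjusted p of 0.0852, or 0.00494 with the block. Icam1 was at 617 and 529 against 292 and 402 (edgeR adjusted p 0.103, or 0.0271 with the block).

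The make-up of the class shifted in the same direction. Cluster 31, led by Sele, Selp, Cytl1, Fabp4 and Ackr1, was 23.3% of the CTRL and 8.70% of the EXP endothelial-like cells. Within cluster 31, Selp was at 2730 and 3230 CPM in CTRL and 1580 and 1170 in EXP, and Ackr1 at 969 and 1140 against 719 and 510. Within cluster 6, the larger one, Vcam1 was at 29.7 and 33.7 against 0.881 and 1.06. Both genes differed by less within cluster 31 than over the class. Within cluster 6 Selp was at 28.4 and 44.0 against 12.3 and 13, and Ackr1 at 3.88 and 31.5 against 13.2 and 5.29, so that its arms overlapped there.

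Fabp4 and Fabp5 encode fatty acid carriers. Fabp4 was at 8163 and 15940 CPM in CTRL and 1936 and 1184 in EXP, and Fabp5 at 609 and 813 against 87.0 and 116. They fell by 3.10 ± 0.43 and 2.96 ± 0.34 (edgeR adjusted p 0.0124 and 0.00442). Csf3, the granulocyte colony-stimulating factor that releases neutrophils from bone marrow, was at 332 and 738 against 42.9 and 109 (-2.96 ± 0.46, edgeR adjusted p 0.0188). Cytl1, a small secreted protein, fell by 4.99 ± 0.53 from 82.2 and 94.0 to 6.24 and 0.924, and Btnl9, a butyrophilin-like surface protein, by 3.30 ± 0.51 from 28.9 and 112 to 7.41 and 9.01. Of 16 NF-kappaB feedback genes, 1 fell, Nfkbia, the inhibitor of that pathway, from 3216 and 3565 to 1719 and 2030. Another 11 lay lower in both EXP libraries without passing.

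Lcn2 rose by 4.74 ± 0.58 in endothelial-like cells, from 8.13 and 11.8 CPM to 136 and 487 (edgeR adjusted p 0.00548). Rab5c, a GTPase of early endosomes, rose by 1.51 ± 0.26 from 249 and 237 to 809 and 732. The other named genes that rose, Nubp1, Galk1, Ift74 and Rangrf, rose by between 1.46 and 1.63 from under 15 CPM in CTRL. With 1 library left out, in the same order, edgeR called 23, 0, 18 and 3 genes against 93 with all libraries, so that no call stood without CTRL round 2.

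Lymphatic endothelial-like cells, which drain fluid and leukocytes, shared some of these genes. Of 8516 genes, edgeR called 3 higher and 5 lower (0.0352% and 0.0587%), or 27 and 58 with the block (0.317% and 0.681%). Lcn2 was at 578 and 678 CPM against 2846 and 2080, and Lrg1, a secreted glycoprotein of inflamed vessels, at 372 and 296 against 1639 and 1175. They rose by 1.89 ± 0.35 and 2.00 ± 0.34 (edgeR adjusted p 0.0485 and 0.0317). Srm, the spermidine synthase, rose by 2.30 ± 0.39 from 13.3 and 18.9 to 94.5 and 78.0. Cytl1 was at 34.5 and 73.5 against 0 and 0.928, a ratio of 92.8 with a counting interval of 15.9 to 3740. Sox4 and Ecm2 fell by 1.95 and 1.94. Summed fibroblast markers in this class were at 13280 and 14420 in CTRL and 10550 and 544 in EXP, so EXP round 2 stood apart, and their part was not tested. With 1 library left out there were 9, 0, 53 and 40 calls.

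Smooth muscle or pericyte-like cells, the contractile cells around vessels, gained transcripts of Ankrd1 and lost those of Il6 and Ccl11. Of 9500 genes, edgeR called 5 higher and 50 lower (0.0526% and 0.526%), or 76 and 240 with the block (0.8% and 2.53%). In 32.8% of genes both EXP libraries lay above both CTRL libraries, and in 15.1% below. Ankrd1, a nuclear and sarcomeric protein and a textbook target of the tension-sensitive co-activators YAP and TAZ, had no UMI in either CTRL library and was at 26.6 and 36.8 CPM in EXP. This was at least 17.2-fold higher (edgeR adjusted p 0.031, from 40 UMIs), and it was the only 1 of 13 tested YAP and TAZ targets that passed. Ccn2, another such target, was at 9.22 and 51.8 against 348 and 352 (3.22 ± 0.68, edgeR adjusted p 0.0684, or 0.00103 with the block). Ccn1 was at 249 and 302 against 564 and 553 (edgeR adjusted p 0.185, or 0.0377 with the block).

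The Ankrd1 promoter is printed because YAP and TAZ act through TEAD factors; capitals mark the TEAD motif GGAATG, searched on both strands.
Ankrd1, chr19:36119795-36120094, minus strand: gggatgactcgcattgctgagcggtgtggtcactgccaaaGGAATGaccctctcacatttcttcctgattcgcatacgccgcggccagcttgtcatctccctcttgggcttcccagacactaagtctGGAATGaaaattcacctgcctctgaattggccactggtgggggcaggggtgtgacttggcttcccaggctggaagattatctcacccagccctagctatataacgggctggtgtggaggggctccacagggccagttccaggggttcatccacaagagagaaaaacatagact
The motif stood at bases 41 to 46 and 128 to 133 of this RefSeq window (GRCm38.p6). It was in 14.7% of all 32851 windows, and in 2 of the 5 named smooth muscle or pericyte genes with a window. Among the 69 named genes of all classes with a window, 12 held the TEAD motif, 35 the C/EBP motif and 6 the AP-1 motif TGANTCA, which 7.81% of all windows held.

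Of 12 tested inflammatory cytokine genes in smooth muscle or pericyte-like cells, 1 fell, Il6, and of 7 other chemokines 1 fell, Ccl11. Il6, the fever and acute phase cytokine, was at 2826 and 2558 CPM against 829 and 1050 (-1.71 ± 0.27, edgeR adjusted p 0.03). Ccl11, the eosinophil chemokine eotaxin, was at 201 and 196 against 32.2 and 10.5 (-3.36 ± 0.42, edgeR adjusted p 0.0147). Adamts4, a protease that cuts proteoglycans, was at 2061 and 3429 against 812 and 523 (-2.24 ± 0.29, edgeR adjusted p 0.0147). In none of the 3 did the arms overlap. Akap12, a signalling scaffold, fell by 2.40 ± 0.29 from 719 and 715 to 164 and 147, and the interferon-induced GTPase gene Gbp2 by 2.71 ± 0.35 from 281 and 431 to 61.7 and 63.0. Xirp1, an actin-binding protein of muscle, fell by 2.32 ± 0.38, and Serpina3n, an acute phase protease inhibitor, rose by 1.39 ± 0.26 from 126 and 152 to 379 and 458. The 4 leave-one-out fits called 12, 0, 7 and 14 genes against 55, and Ankrd1 passed in none of them (edgeR adjusted p up to 0.278). Il6, Xirp1 and Serpina3n also passed in none of these fits, while Ccl11, Adamts4, Akap12 and Gbp2 kept their calls in some. At the 5% mitochondrial limit 8 of the 14 examined calls of this class stood, and Ankrd1 had an edgeR adjusted p of 0.0562.

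In sebaceous gland-like cells, which make the lipid of sebum, the lipid enzyme genes Soat1, Elovl6 and Scd1 fell. Of 9066 genes, edgeR called 6 higher and 54 lower (0.0662% and 0.596%), or 61 and 187 with the block (0.673% and 2.06%). Without overlap, EXP lay above in 25.0% of genes and below in 17.6%. Soat1, which esterifies cholesterol, was at 174 and 348 CPM in CTRL and 6.70 and 5.98 in EXP (-5.41 ± 0.43, edgeR adjusted p 0.002). Elovl6, a fatty acid elongase, was at 397 and 547 against 75.6 and 37.9 (-3.12 ± 0.34, edgeR adjusted p 0.00787). Scd1, the desaturase of sebaceous glands, was at 732 and 1039 against 267 and 273 (-1.78 ± 0.22, edgeR adjusted p 0.00949). Both EXP libraries lay below both CTRL libraries in all 3. The median share of mitochondrial UMIs in this class was 5.75% and 5.41% in CTRL and 3.97% and 3.71% in EXP. With cells limited to 5%, which left 73 of 161 CTRL and 79 of 114 EXP cells, Soat1 kept its call (-3.46, edgeR adjusted p 0.0307). Elovl6 and Scd1 lost theirs, at -1.16 and -0.79 (edgeR adjusted p 0.526 and 0.52), and 5 of the 11 examined calls of the class stood. Dhrs9, a retinol dehydrogenase, had 70 UMIs in CTRL and 3 in EXP, a ratio of 21.3 with a counting interval of 6.98 to 106.

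Ifnk, an interferon of keratinocytes, was at 31.3 and 16.3 CPM against 1.92 and 2.99 (-3.26 ± 0.58, edgeR adjusted p 0.0473). All 50 of its CTRL UMIs came from cells with more than 5% mitochondrial UMIs: with cells limited to 5%, CTRL held 0 and EXP 3 UMIs, and the difference turned to 3.82 without passing (edgeR adjusted p 0.644). Cxcl10, a chemokine for T cells, rose by 3.57 ± 0.51 in the sebaceous gland-like cells, from 1.12 and 7.40 CPM to 71.8 and 48.9. Dusp2, a phosphatase of activated cells, rose by 3.39 ± 0.48 from 3.35 and 10.4 to 56.5 and 109, and Sostdc1, a BMP and WNT antagonist, by 1.60 ± 0.27 from 61.5 and 64.4 to 157 and 245. Their edgeR adjusted p values were 0.0173, 0.0173 and 0.0432. Of 6 MHC class II genes, H2-Ab1 and Cd74 rose, at under 1% of their level in the class where they were highest. The summed dendritic markers in these cells were at 30.2 and 31.8 in CTRL and 191 and 83.8 in EXP, and their part was not tested. Summed fibroblast markers were at 11700 and 6035 in CTRL and 398 and 32.9 in EXP, beside 5 of 13 collagens called lower. The class held 50 and 111 cells in CTRL and 47 and 67 in EXP, and the 4 leave-one-out fits called 199, 0, 315 and 15 genes. Soat1 lost its call only without CTRL round 2 (edgeR adjusted p 0.583).

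The class named dermal papilla-like was for 76.8% of its CTRL and 75.3% of its EXP cells cluster 13, led by Cck, Kera, Fmod, Krt8, Coch and Tnmd, with Coch as its 1 papilla marker among the leading 10 genes. The rest was cluster 10, led by genes including Corin, Hhip and Rspo3. The class gave no call in 11241 genes by edgeR (0.0%). At an unadjusted p under 0.05 there were 690 genes, DESeq2 called 15, and the fit with the round as a block called 34 higher and 56 lower (0.302% and 0.498%). Tnc was at 79.2 and 75.1 CPM in CTRL and 197 and 208 in EXP (1.31 ± 0.30, edgeR adjusted p 0.642, or 0.0588 with the block), a smaller difference than in fibroblast-like cells that was not tested against them. Corin, a protease of the papilla, was at 13.3 and 112 against 9.42 and 9.13 (edgeR adjusted p 0.747).

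In dendritic-like cells, which take antigen to lymph nodes, Retnla fell and the stefin genes Stfa2 and Stfa2l1 rose. The class spans cluster 5, led by Lyz1, Ear2 and Mmp12, with 86.2% of its cells in CTRL and 78.0% in EXP, and part of cluster 18, led by Ccl22 and Cd207. Of 10007 genes, edgeR called 14 higher and 77 lower (0.14% and 0.769%), or 202 and 445 with the block (2.02% and 4.45%). EXP lay above without overlap in 44.0% of genes and below in 15.8%. Retnla, a secreted protein of alternatively activated myeloid cells, was at 130 and 114 CPM in CTRL and had no UMI in EXP, at least 155-fold lower (edgeR adjusted p 0.0405). Stfa2, a cysteine protease inhibitor of myeloid cells, had 3 UMIs in CTRL and was at 183 and 49.8 in EXP, a ratio of 352 with a counting interval of 120 to 1710. Stfa2l1 of the same family rose by 3.60 ± 0.56 from 3.10 and 4.77 to 71.5 and 43.7; the members are near-identical copies, so the split of reads between them is uncertain. Msr1, a scavenger receptor, rose by 3.27 ± 0.48 from 8.81 and 8.68 to 88.8 and 114 (edgeR adjusted p 0.024). In each of these 4 genes the arms did not overlap. Retnla and Msr1 differed within cluster 5, where Msr1 was at 9.80 and 10.4 against 122 and 142. The stefins had no UMI in cluster 5 in any library. Within cluster 18, Stfa2 was at 2.36 and 2.65 against 677 and 241, from 69 EXP cells. Both stefins are also among the leading genes of the neutrophil cluster 12, and neutrophil-like cells were more frequent in EXP. The neutrophil gene Retnlg had no UMI in cluster 18, and S100a8 had 0 in CTRL and 3 in EXP. The 10 neutrophil markers summed to 344 and 392 CPM against 255 and 430 over the class. The part of neutrophil transcripts in the stefin calls was not tested.

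Genes that fell in dendritic-like cells included Lyz1, a lysozyme, from 888 and 1196 CPM to 291 and 152, and Mir155hg, the host transcript of microRNA 155, from 31 and 65.3 to 3.47 and 9.96. The growth factors Areg and Vegfa were at 98.6 and 102 against 14.9 and 16.6, and at 108 and 101 against 22.8 and 32.1. They fell by 2.92 ± 0.49 and 2.19 ± 0.33 (edgeR adjusted p 0.0279 and 0.024). The interferon-induced genes Oasl1 and Isg15 fell by 2.85 ± 0.53 and 1.66 ± 0.32. Fn1, encoding fibronectin, fell by 3.18 ± 0.47 from 234 and 199 to 39.2 and 17.2. Summed fibroblast markers in these cells were at 4069 and 2013 in CTRL and 267 and 76.9 in EXP, and their part in the matrix calls (5 of 12 collagens lower) was not tested. Of the genes named here for dendritic-like cells, Fn1 kept its call in 1 of the 4 leave-one-out fits. The others, Retnla, Stfa2, Stfa2l1 and Msr1 among them, kept theirs in none of these fits. DESeq2 called 240.

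Macrophage or monocyte-like cells were drawn from different clusters in the arms. Cluster 3, led by the complement genes C1qa, C1qb and C1qc and by Folr2, was 93.5% of the class in CTRL and 25.6% in EXP, and cluster 1, led by Chil3, Arg1 and Ly6c2, was 6.48% and 74.4%. Over the whole class, 4 of 12010 genes passed in edgeR, 2 in each direction (0.0167% each), against 77 and 154 with the block (0.641% and 1.28%), 2055 at an unadjusted p under 0.05 and 427 by DESeq2. EXP lay above without overlap in 30.6% of genes and below in 19.8%. Spp1, the secreted phosphoprotein osteopontin, was at 32.6 and 33.7 CPM in CTRL and 1062 and 2878 in EXP (5.78 ± 0.58, edgeR adjusted p 0.0307). Wfdc21, a small protease inhibitor-like protein, was at 0.368 and 1.53 against 69.7 and 68.6 (6.29 ± 0.72, edgeR adjusted p 0.0363). Irf4, a transcription factor of alternative activation, was at 88.8 and 75.9 against 9.80 and 13.5 (-2.93 ± 0.36, edgeR adjusted p 0.0472). Gbp2b, an interferon-induced GTPase, was at 35.4 and 42.9 against 3.81 and 1.29 (-4.21 ± 0.49, edgeR adjusted p 0.0363). The arms did not overlap in any of the 4.

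Within cluster 1 of the macrophage or monocyte-like class, Spp1 was at 364 and 285 CPM in CTRL and 2180 and 3270 in EXP, so its level also differed inside that cluster. Within cluster 3, Irf4 was at 93.5 and 82.6 against 16.9 and 32.1 and Gbp2b at 37.8 and 47.5 against 6.98 and 5.35. Retnla over the class was at 307.9 and 301 against 1.09 and 2.58 (-7.38 ± 1.32, edgeR adjusted p 0.103, or 0.028 with the block). All 12 classical monocyte genes lay higher in both EXP libraries, but none passed (6 with the block). Ccr2, the receptor that brings monocytes out of the blood, was at 70.6 and 82.0 against 602 and 496 (edgeR adjusted p 0.101, or 0.0278 with the block). In round 2, 94.0% of the assigned EXP cells of this class were from EXP mouse 3. Leaving out 1 library gave 0, 0, 47 and 1 calls. The median share of mitochondrial UMIs in the class was 4.23% and 3.71% in CTRL and 2.52% and 2.35% in EXP, and at the 5% limit only Spp1 of the 4 calls stood.

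T cell-like cells gave no call in 8620 genes by edgeR (0.0%). There were 654 genes at an unadjusted p under 0.05, 33 calls by DESeq2, and 21 higher and 87 lower with the round as a block (0.244% and 1.01%). Cluster 26, led by Cd8a and Cd8b1, was 19.5% of the class in CTRL and 51.1% in EXP, and cluster 16, led by Trdc, a constant gene of gamma-delta T cells, was 80.5% and 48.9%. Those shares pool the libraries of an arm. Of the 554 cells of cluster 26 over the whole series, 54.9% were from EXP round 2. In that round 83.2% of the assigned EXP T cell-like cells came from EXP mouse 3. Ccl4, a chemokine of activated T cells, was at 16.9 and 39.0 CPM in CTRL and 66.5 and 506 in EXP (3.22 ± 0.87, edgeR adjusted p 0.344, or 0.00265 with the block). Within cluster 26 it was at 66.3 and 88.8 against 41.6 and 827, so there the arms overlapped and EXP round 2 alone was high. Within cluster 16 it was at 8.47 and 23.6 against 69.8 and 75.2, with both EXP libraries above both CTRL libraries. Leaving out 1 library gave 0, 2, 90 and 33 calls. Between the hashed mice of round 2, none of 3267 genes was higher (0.0%) and 6 were lower (0.184%) in T cell-like cells.

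Among innate lymphoid or NK-like cells, 1 gene was higher and 11 lower of 6420 (0.0156% and 0.171%), or 3 and 29 with the block (0.0467% and 0.452%). EXP lay above without overlap in 29.6% of these genes and below in 11.5%, and in mast-like cells in 21.7% and 24.4%. Gpr55, a lipid receptor, rose by 2.66 ± 0.49 from 2.60 and 17 CPM to 84.9 and 82.3. The linker histone gene Hist1h1c fell by 1.88 ± 0.28 from 308.9 and 459 to 110 and 120, and Hist1h2bc by 3.44 ± 0.42 from 72.7 and 136 to 11.9 and 9.49. Samd11 was at 182 and 208 against 18.7 and 49.0 (-2.66 ± 0.37, edgeR adjusted p 0.00356). The same gene was the 1 call of 3260 genes in mast-like cells (0.0307%), at 153 and 156 against 9.90 and 9.26 (-3.87 ± 0.57, edgeR adjusted p 0.00843). Both EXP libraries of Samd11 lay below both CTRL libraries in both classes. At the 5% mitochondrial limit none of the 6 examined calls of innate lymphoid or NK-like cells stood (Samd11 at -2.14, edgeR adjusted p 0.0673), and that of Samd11 in mast-like cells did. With the block, mast-like cells had 64 genes higher and 72 lower (1.96% and 2.21%). The 4 leave-one-out fits called 9, 15, 6 and 11 genes in innate lymphoid or NK-like cells and 8, 3, 11 and 11 in mast-like cells.

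**Figure D5:**
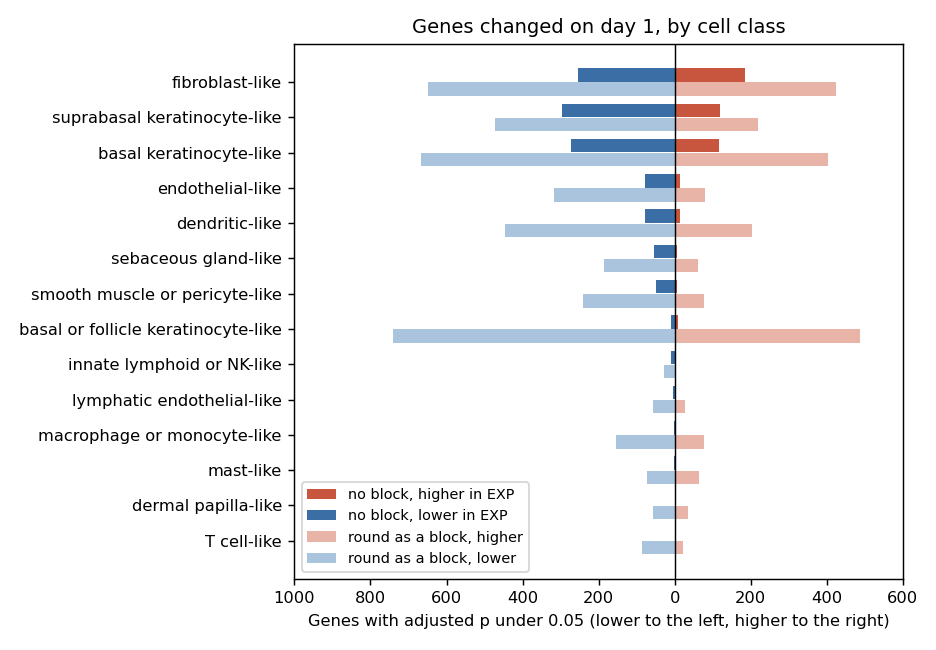
Number of genes called higher and lower in EXP at an edgeR adjusted p under 0.05 in each of the 14 tested classes (bars from 0), without and with the sequencing round as a block. Fibroblast-like (186 and 255), basal (116 and 272) and suprabasal keratinocyte-like cells (118 and 297) have the most calls without the block, and dermal papilla-like and T cell-like cells have none.

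The last comparison asked whether the change on day 1 differed from that on day 2, for which the series has its own expanded and control libraries. In basal keratinocyte-like cells, 15 of 10217 genes had a lower change on day 1 than on day 2 and none a higher one (0.147% and 0.0%, edgeR interaction). Most are genes of cell division, among them Mki67, Hmmr, Anln, Ccna2, Cdc20, Cenpe, Tpx2 and Pttg1. Mki67 fell by 1.70 on day 1 and had a difference of 0.75 on day 2 (edgeR adjusted p 0.245), and the gap between the days was -2.45 ± 0.35 (edgeR adjusted p 0.0144). Hmmr fell by 2.68 on day 1 and was at 0.81 on day 2 (edgeR adjusted p 0.366), a gap of -3.49 ± 0.50. Diaph3, a formin of cell division, fell by 1.17 on day 1 and rose by 1.76 on day 2 (edgeR adjusted p 0.039), a gap of -2.92 ± 0.38.

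In endothelial-like cells the growth factor gene Gdf15 was the 1 gene that differed between the days (0.00893% of 11199). It fell by 1.33 ± 0.23 on day 1, from 217 and 182 CPM to 80.7 and 94.9, and by 4.49 on day 2, a gap of 3.16 ± 0.39 (edgeR adjusted p 0.0378). With 1 day 1 library left out, the number of genes that differed between the days ran from 0 to 32 in basal keratinocyte-like cells and from 0 to 3 in endothelial-like cells. Fabp4 in dendritic-like cells also differed between the days (gap -5.96 ± 0.68, edgeR adjusted p 0.0402). So did Krt15 in fibroblast-like cells (gap 4.81 ± 0.53, edgeR adjusted p 0.045). Both genes were far below their level in the class where they were highest (0.129% and 0.369% of it). Days were harvested from separate mice, and the libraries of a day share their tubes and capture reactions.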

How the data were processed

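Droplet 3′ libraries of day 1 skin were analysed from UMI count matrices; per the submitters' processing notes the authors made these counts with Cell Ranger 6.1.2 on mm10, and the hashtag counts are rows of the same deposited matrices. A barcode was kept with 200 genes and 500 UMIs or more and no more than 10% of UMIs from mitochondrial genes; between 8.60% and 17.9% of the barcodes of a day 1 library exceeded that mitochondrial limit. Doublets were called with Scrublet in every library and also from hashtags in round 2 (1.46% to 4.28% removed per day 1 library). All 10 mRNA libraries were clustered together without batch correction (scanpy 1.11.5, 2000 variable genes, 30 components, 15 neighbours, Leiden resolution 1), giving 39 clusters. A cluster was named from marker lists when at least 3 markers were detected in 10% of cells at 2-fold enrichment. Details of the naming, such as splitting 2 clusters by finer ones, were settled while the clusters were being examined. Mice were assigned with HTODemux (Seurat 5.3.0, quantile 0.99).

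Counts were summed per library and class where it held at least 20 cells. They were scaled by TMM and fitted with edgeR 4.0.16 (R 4.3.3), a quasi-likelihood model with 6 day-by-arm groups over all libraries. The day 1 groups were tested with Benjamini-Hochberg adjustment at 0.05. Shares were tested the same way on cell counts, without TMM and with all kept cells of a library as its size. The round is a shared batch per the labels; same-round deviations correlated at 0.0507 to 0.302 by class, and the blocked counts stand beside each result. Alternatives were DESeq2 1.42.0, RLE size factors, no low-count filter, a 5% mitochondrial limit, thinning to 2000 UMIs, day 1 libraries alone, each day 1 library left out and, added after the data were seen, clusters 8 and 19 joined to the fibroblasts. The fits were tested on simulated data.

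Named genes were, per class and direction, the 6 with the largest change among those that passed and did not overlap between arms. They also reached 20 CPM in the higher arm and had at least 10% of the level of the class where they were highest. That class, here and in the results, was sought only among classes with at least 20 cells in each day 1 library. Neutrophil-like cells, at 7 in CTRL round 1, were not among them, so the level rule could not screen for neutrophil transcripts. Gm, Rik and mitochondrial genes were left out. Members of 28 gene lists (383 of 385 genes were in the files) and 3 genes per class for the day difference were added. Genes, lists and classes were chosen with earlier results of these data known. Promoters are from RefSeq's table for GRCm38.p6, the assembly behind mm10. Intervals and floors cover counting error only.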

Additional observations from a re-analysis of the deposited data

Results flagged for a closer look

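The change on day 1 differed from that on day 2, by the edgeR interaction test, for 4 cell division genes in basal keratinocyte-like cells: Hmmr (-3.49 on the log2 scale), Cenpa (-2.94), Cdca3 (-2.93) and Diaph3 (-2.92). In endothelial-like cells the change of Gdf15 differed by 3.16, since it fell less on day 1 than on day 2.

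Hashtags that belong to the mice of the other arm were counted in both hashed libraries of day 1, which the comparisons do not use. The library of CTRL round 2 held 472 counts of the EXP hashtags, and the library of EXP round 2 held 146 counts of the CTRL hashtags. Each of the 6 hashtags had at least 111130 counts in the library of its own arm.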

How the results depend on the processing

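Counts of genes changed on day 1 are given in the order T cell, basal keratinocyte, basal or follicle keratinocyte, dendritic, dermal papilla, endothelial, fibroblast, innate lymphoid or NK, lymphatic endothelial, macrophage or monocyte, mast, sebaceous gland, smooth muscle or pericyte and suprabasal keratinocyte-like cells. With the round as a replicate block they were 108, 1070, 1229, 647, 90, 398, 1074, 32, 85, 231, 136, 248, 316 and 691. Without a filter on low counts they were 173, 930, 1097, 897, 192, 523, 1756, 119, 124, 1089, 46, 446, 423 and 667. With 1 day 1 library left out they ran from 0 to 90, 59 to 197, 1 to 82, 0 to 42, 0 to 0, 0 to 23, 8 to 527, 6 to 15, 0 to 53, 0 to 47, 3 to 11, 0 to 315, 0 to 14 and 202 to 380. Under the other settings only counts that moved by over 1.5 times are given. DESeq2 gave 33 in T cell, 193 in basal, 133 in basal or follicle, 240 in dendritic, 15 in dermal papilla, 794 in fibroblast, 24 in lymphatic, 427 in macrophage or monocyte, 0 in mast and 67 in suprabasal cells. Thinning to 2000 UMIs gave 12 in T cell, 122 in basal, 52 in basal or follicle, 45 in dendritic, 17 in lymphatic, 83 in macrophage or monocyte, 11 in sebaceous and 80 in suprabasal cells, and mast cells could not be tested. Day 1 libraries alone gave 186 in dendritic, 20 in dermal papilla, 286 in endothelial, 193 in fibroblast, 41 in lymphatic, 0 in mast, 37 in sebaceous and 2 in smooth muscle or pericyte cells. The 5% mitochondrial limit gave 1 in basal or follicle, 2 in innate lymphoid or NK, 1 in macrophage or monocyte, 16 in mast and 17 in smooth muscle or pericyte cells, and reversed Ifnk in sebaceous cells (3.82). RLE size factors gave 17 in lymphatic cells, and joining clusters 8 and 19 gave 757 in fibroblast cells.

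Genes whose change differed between the days numbered, with the replicate block, 7 in T cell, 75 in basal, 45 in dendritic, 6 in dermal papilla, 8 in endothelial, 2 in fibroblast, 2 in lymphatic and 27 in smooth muscle or pericyte cells. With 1 library left out they ran from 0 to 19 in T cell, 0 to 32 in basal, 0 to 3 in endothelial, 0 to 6 in lymphatic and 0 to 1 in smooth muscle or pericyte cells. Groups of cells whose share passed numbered 11 with the block, 5 at the 5% limit, 4 with day 1 alone, 0 at Leiden resolution 2, 0 with clusters joined and 0 to 4 with 1 library left out. Groups whose share of all assigned cells did not overlap between mice numbered 5 under the hashtag ratio rule. By HTODemux they were clusters 8 and 19 and smooth muscle or pericyte-like cells. Each had an exact permutation p of 0.1, the smallest that 3 mice against 3 can give. The adjusted values were 0.436 under the ratio rule and 0.64 by HTODemux, so no group passed. Calls between mice, 1289 in basal and 6 in T cell-like cells, ran from 731 (without EXP mouse 1) to 1117 (without CTRL mouse 3) and from 0 to 8 with 1 mouse left out, among them in basal cells 749, 834 and 812 without CTRL mouse 1, EXP mouse 2 and EXP mouse 3. The cause of these shifts was not tested. Of 178 gene values in the classes examined, 159 were called in the main fit. At the 5% limit 46 lost their call, besides Ifnk, which reversed without passing. Calls were lost by 49 of 175 values with day 1 libraries alone and by 47 of 159 with thinning. With DESeq2 24 of 153 values lost their call, and with the block none did. With 2 libraries per arm, and 50 or fewer cells of some classes in a library, small differences were not detectable.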

Other observations

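The genes of this paragraph were picked after their values were seen. Of 2680 genes tested in all 14 classes, 17 had EXP above CTRL without overlap in every class and 1 had EXP below. In single classes other than T cell-like, dermal papilla-like and lymphatic endothelial-like cells, 21.7% to 47.4% of genes lay above. Rbm3, a cold-inducible RNA-binding protein, was 1 of the 17 and passed in 5 classes (11 with the round as a block), with log2 differences of 0.42 to 1.63. Snhg3, a host transcript of small nucleolar RNA, was another and passed in 4 (6 with the block). Cirbp, a relative of Rbm3, lay above in 13 of 14 classes and passed in 4 (10 with the block). In basal keratinocyte-like cells Rbm3 was at 689 and 555 CPM in CTRL and 1303 and 1779 in EXP, and in the hashed mice at 476, 586 and 624 against 1961, 1744 and 1955. Dot1l, a histone methyltransferase, lay below in 14 of 14 classes and passed in 4. The classes share their libraries, so they are not independent, and arm and tube cannot be told apart.

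Cluster 17, led by Il17a and Il17f, made up 9.97%, 10.4% and 9.79% of the immune cells of the 3 CTRL mice and 14.8%, 12.8% and 15.8% of those of the 3 EXP mice. The arms did not overlap; the exact permutation p of 0.1 is the smallest possible here, and the adjusted value was 0.333.

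Basal keratinocyte-like shares over single mice depended on the rule that assigns cells. By HTODemux the arms overlapped (exact permutation p 0.4, adjusted 0.64), with EXP mouse 3 at 1.97%, below every CTRL mouse. With the rule that the leading hashtag has 3 times the counts of the next, the CTRL mice were at 2.997%, 2.53% and 4.07% and the EXP mice at 8.80%, 20.5% and 6.33% (exact permutation p 0.1, adjusted 0.436).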
